A study of Mus musculus with 2 samples.

Results

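The circadian clock genes described here were Arntl, Clock, Per1, Per2, Nr1d1, Nr1d2, Ciart, Dbp, Tef and Usp2, which are 10 of the 32285 genes counted, chosen by symbol and not by their values. They were followed in liver cells by cell type and by sequencing library, to ask whether differences between the libraries were shared by hepatocytes and immune cells. The molecular clock is a feedback loop that runs in nearly every cell. ARNTL (also called BMAL1) and CLOCK bind E-boxes as a pair and activate their targets, among them the Per genes, the REV-ERB genes Nr1d1 and Nr1d2, Ciart and Dbp. PER proteins and CIART repress the pair, REV-ERB proteins repress Arntl, and DBP and TEF drive output genes through D-boxes, so that in mouse liver Arntl and Dbp peak at opposite times of day.

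Mice ate HFCFD, a feed of 40% by the labels that is high in fat, fructose and cholesterol, for 2 weeks, and 1 sample labelled Cebp KO and 1 labelled Cebp WT were profiled as single cells. Per the study's methods, hepatocyte knockouts were bred from Cebpa fl/fl mice and an Albumin-cre line, which acts in hepatocytes, on a C57BL/6N background. Cells were freed by perfusion and digestion and passed through Percoll, and 10x Genomics 3' v3.1 libraries were made. The age of the mice, the time of day of collection and any pooling of livers were not stated in the labels or methods used here.

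Barcodes carried the suffix 1 or 2, and no label ties a suffix to a genotype. The libraries are therefore called suffix 1 and suffix 2, a difference between them is not a difference between genotypes, and with 1 sample per genotype no test was possible. Genotype, time of collection, animal and preparation cannot be told apart. Cebpa, the targeted gene, was at 0.970 CPM (25 UMIs) in hepatocytes with suffix 1 and at 98.0 CPM (1198 UMIs) with suffix 2. A UMI is a unique molecular identifier, which marks 1 captured RNA molecule, and CPM is the UMIs of a gene per 1000000 UMIs summed over a cell class.

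The library with suffix 1 held 17313 barcodes and 60048646 UMIs, and that with suffix 2 held 15003 barcodes and 52355243 UMIs. The median mitochondrial share was 4.07% and 41.3%, and a limit of 25% together with minimums of 500 UMIs and 200 genes left 11617 and 6088 cells. Marker gates gave 9108 and 3795 hepatocytes, 695 and 620 T or NK cells, 294 and 460 Kupffer cells or macrophages, 181 and 157 B cells, and 116 and 134 endothelial cells. The gates are cuts on marker counts: 301 and 243 cells lay just under the hepatocyte limit, and 626 and 210 just above it. In T or NK cells their own markers summed to 6619 and 7031 CPM, against 21.1 and 22.3 CPM in hepatocytes. In macrophages their own markers summed to 19480 and 20844 CPM, against 105 and 128 CPM in hepatocytes. Of all barcode sequences, 81 occurred in both libraries, and 34 of these were kept in both.

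Sequence in front of the start sites was taken from RefSeq (GRCm38.p6), in which 9 of the 10 genes were found with 14 promoters. Per2 was not among them. E-boxes, the sites through which ARNTL and CLOCK act, are shown because they tie members of the loop to its activators. Capitals mark CACGTG, or in Nr1d1 the variant CACGTT, which reads AACGTG on this strand, and each stretch is written 5′ to 3′ on the strand of its gene.
Ciart, chr3:95882252-95882369, minus strand: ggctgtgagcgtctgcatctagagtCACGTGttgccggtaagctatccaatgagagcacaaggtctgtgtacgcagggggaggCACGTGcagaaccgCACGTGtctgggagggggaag
Per1, chr11:69098758-69098813, plus strand: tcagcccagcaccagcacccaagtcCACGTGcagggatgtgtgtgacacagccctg
Tef, chr15:81811251-81811306, plus strand: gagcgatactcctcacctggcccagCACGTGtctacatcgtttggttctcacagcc
Nr1d1, chr11:98775378-98775430, minus strand: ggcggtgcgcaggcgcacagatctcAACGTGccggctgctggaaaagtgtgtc
The stretches of Ciart and Nr1d1 lay upstream of the annotated genes and outside exons, and those of Per1 and Tef lay in introns of longer transcripts of the same genes (GENCODE M21). Ciart held 3 E-boxes, 116, 58 and 44 bases before its start, and 20 of 32851 promoters (0.0609%) held at least 3. CACGTG on either strand was found in the 250 bases before the start in 6.02% of all promoters. Among the 14 promoters of the clock genes it was found in 4, which belong to 3 of the 9 genes. A further promoter of Tef had a match 127 bases before its start, in an annotated exon. CACGTT occurred in 3.85% of promoters and in 1 of the 14, which belongs to Nr1d1. The core of the ROR element, AGGTCA, to which REV-ERB proteins bind, occurred in 14% of all promoters. Of the 14 clock gene promoters 3 held it, and these belong to Clock, Per1 and Nr1d2. TTATGTAA, a D-box, was present in 0.819% of promoters and in none of the 9 genes in this window. A match is a description of the letters, not of binding.

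Arntl lies at chr7:113207465-113314126, Clock at chr5:76209868-76304792, Per1 at chr11:69095217-69109960 and Per2 at chr1:91415982-91459324. Nr1d1 lies at chr11:98767932-98775333, Nr1d2 at chr14:18204054-18239127 and Ciart at chr3:95878503-95882251. Dbp lies at chr7:45705088-45710203, Tef at chr15:81802421-81826863 and Usp2 at chr9:44067021-44095627. All are protein-coding genes. Clock overlaps Ube2n-ps1 and Gm43658 on its own strand, so reads of these genes could be split. On the opposite strand Nr1d1 overlaps Thra, Dbp overlaps Sphk2, Arntl overlaps Gm45355, Tef overlaps Gm17597, Usp2 overlaps Gm49380 and Gm39325, and Ciart overlaps C920021L13Rik. The use of strand in counting was not stated in the sources used here.

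In hepatocytes the clock genes differed between the libraries in both directions. Dbp, Usp2 and Ciart were more than 2-fold higher and Arntl was more than 2-fold lower with suffix 1, and Clock, Per1 and Nr1d1 were close to equal. Which genes passed 2-fold depended in part on the filter. With no filter on cells Tef (2.74, or 2.24 without mitochondrial genes) and Per2 (2.41, or 1.97) were also past it. Arntl (0.780) was not, in totals that count mitochondrial genes, and its ratio without them is not given. Clock, Per1 and Nr1d1 had ratios of 1.28, 1.54 and 1.61 there (1.05, 1.26 and 1.31 without mitochondrial genes). With a mitochondrial limit of 10% Tef (2.29) and Per2 (2.72) were past 2-fold and Arntl (0.790) was not. A share over all genes is not given for these other filters. Of 12375 genes with at least 20 UMIs in hepatocytes, 4.1% were over 2-fold higher and 3.29% over 2-fold lower with suffix 1, against 3 and 1 of the 10 clock genes. The median log2 ratio of suffix 1 to suffix 2 was 0.59 over the clock genes and 0.06 over all genes. Intervals below are exact 95% intervals and cover counting error only.

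The activators Arntl and Clock were not alike. With suffix 1 Arntl had 3.18 CPM (2.53 to 3.95), and with suffix 2 it had 6.55 CPM (5.19 to 8.15). The ratio of suffix 1 to suffix 2 was 0.486 (0.353 to 0.670), from 82 and 80 UMIs, so the intervals of the levels did not overlap. This ratio depended on the cell filter. It was 0.790 (0.415 to 1.56) with a mitochondrial limit of 10%, which left 29 and 16 Arntl UMIs. With no filter on cells, where mitochondrial UMIs of droplets over 25% enter the totals, the ratio was 0.780 (0.584 to 1.04). RNA from T or NK cells and macrophages, judged by their markers in hepatocytes, would give 0.421 and 0.456 CPM of Arntl. Clock, the partner of ARNTL, was at 24.6 CPM with suffix 1 and at 28.0 CPM with suffix 2. Its ratio was 0.880, and the interval of 0.771 to 1.01 included equality.

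Among the repressors the ratios ran from near 1 to the highest of the 10. Per1, which also responds quickly to hormones and stress, was at 7.52 and 7.36 CPM, with a ratio of 1.02 (0.792 to 1.33). Per2 was at 11.2 and 6.55 CPM, with a ratio of 1.71 (1.33 to 2.22). The Per genes thus differed from each other, one close to equal and one higher with suffix 1. Nr1d1, the gene for REV-ERB alpha, was at 35.6 and 33.6 CPM, with a ratio of 1.06 (0.941 to 1.19). Nr1d2, the gene for REV-ERB beta, was at 34.7 and 26.1 CPM, with a ratio of 1.33 (1.17 to 1.51). Ciart was at 6.71 CPM (173 UMIs) with suffix 1 and at 1.80 CPM (22 UMIs) with suffix 2, and its ratio of 3.73 (2.39 to 6.10) was the highest among the 10 genes.

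The output genes were all higher with suffix 1. Dbp, a transcription factor of the D-box family, had 91.5 CPM (87.8 to 95.3) in one library, suffix 1, and 31.8 CPM (28.7 to 35.2) in the other, from 2359 and 389 UMIs. Its ratio was 2.87 (2.58 to 3.21). Tef, a factor of the same family, was at 46.9 and 24.6 CPM, with a ratio of 1.91 (1.68 to 2.17). Usp2, a deubiquitinase with a strong daily rhythm in liver, was at 40.7 CPM (1049 UMIs) and 11.9 CPM (145 UMIs), with a ratio of 3.43 (2.88 to 4.11). Because Dbp and Arntl lay on opposite sides of equality, 28.8 Dbp UMIs (23.1 to 36.3) were counted per Arntl UMI with suffix 1 and 4.86 (3.81 to 6.27) with suffix 2.

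The 4 genes past 2-fold over all hepatocytes were also past it in deep hepatocytes, while the genes past it in shallower hepatocytes differed in part. Deep hepatocytes, with at least 5000 UMIs, numbered 599 and 494, with median mitochondrial shares of 15.7% and 15.6%. Of 11363 genes in them, 4.54% were over 2-fold higher and 3.38% over 2-fold lower with suffix 1, and among the 10 clock genes 3 (Dbp, Usp2 and Ciart) were higher and 1 (Arntl) lower. The ratios were 0.445 (0.303 to 0.651) for Arntl, 2.59 for Dbp, 3.46 for Usp2 and 3.84 for Ciart. The 8509 and 3301 shallower hepatocytes had median mitochondrial shares of 1.64% and 3.41%. A limit of 10% lies between the medians of deep and shallower cells, so it and this split are not separate checks. In the shallower cells Arntl had a ratio of 0.700 (0.372 to 1.36) from 29 and 17 UMIs, whose interval included equality. There Dbp had a ratio of 3.12 (2.65 to 3.69) and Usp2 one of 4.26 (2.84 to 6.64). Per2 (2.97, 1.65 to 5.77, from 94 and 13 UMIs), Tef (2.25, 1.71 to 3.01) and Ciart (3.75) were past 2-fold there too. A share over all genes is not given for the shallower cells. No clock gene had more than 7.55% of its UMIs in 1 cell among deep hepatocytes, over the 19 counts by gene and library with at least 20 UMIs.

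**Figure D1:**
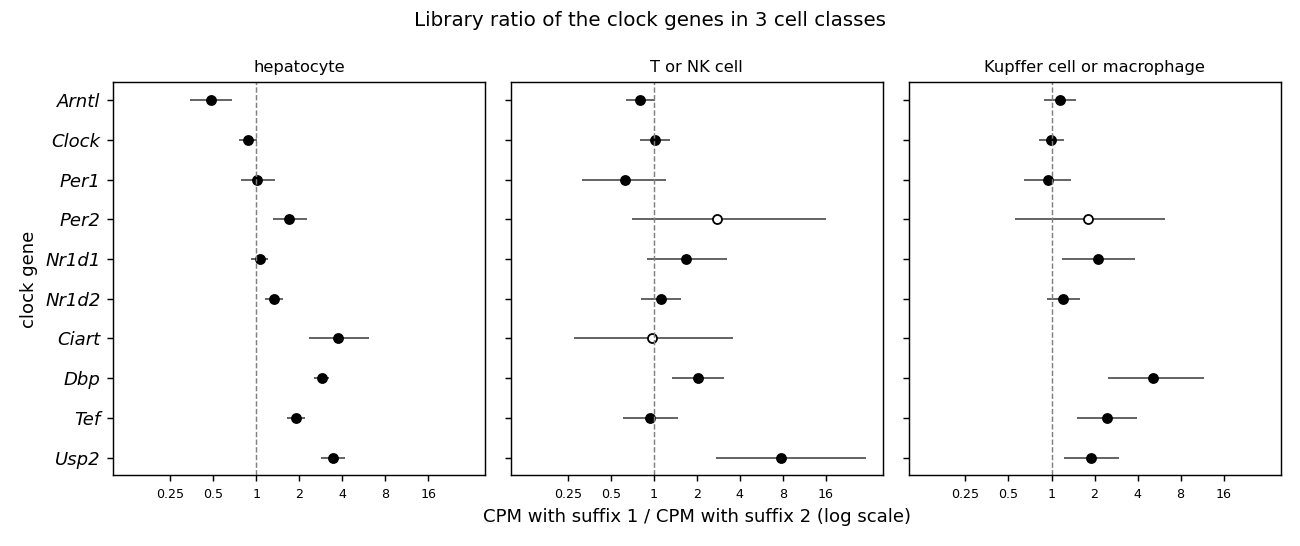
Ratio of CPM with suffix 1 to CPM with suffix 2 for the 10 clock genes in 3 cell classes, on a log scale. Points are ratios, bars are exact 95% intervals for counting error only, open points rest on fewer than 20 UMIs, Ciart in macrophages (2 and 2 UMIs) is not drawn, and the dashed line marks equality. Arntl sits at 0.486 in hepatocytes, 0.807 in T or NK cells and 1.14 in macrophages.

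T or NK cells, lymphocytes that carry their own clock, showed Arntl and Clock at levels above those of hepatocytes. Arntl was at 47.9 CPM with suffix 1 and at 59.3 CPM with suffix 2, with a ratio of 0.807 (0.653 to 0.997). That interval left out equality, on the same side as in hepatocytes. Clock was at 46.5 and 45.8 CPM, with a ratio of 1.02 (0.809 to 1.28). Nr1d2 was at 27.7 and 24.8 CPM, with a ratio of 1.12 (0.823 to 1.52). The ratios of these 3 genes thus lay between 0.807 and 1.12.

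Other genes of the loop were low in T or NK cells. Per1 had 18 and 24 UMIs, Nr1d1 34 and 17, Per2 10 and 3, and Ciart 7 and 6. The output genes Dbp and Usp2 were higher with suffix 1. Dbp was at 24.2 and 11.9 CPM, with a ratio of 2.03 (1.37 to 3.06). Usp2 had 37 UMIs with suffix 1 and 4 with suffix 2, with a ratio of 7.72 (2.77 to 29.8). Tef was at 13.7 and 14.5 CPM, with a ratio of 0.946 (0.621 to 1.44). Over 2-fold higher with suffix 1 were 2 of the 8 clock genes with at least 20 UMIs, against 2.46% of 11310 genes, and over 2-fold lower were 0, against 1.79%.

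Kupffer cells or macrophages held Arntl and Clock at nearly equal levels in the libraries. Arntl was at 49.9 and 43.6 CPM, with a ratio of 1.14 (0.899 to 1.45). Clock was at 78.2 CPM in both libraries, with a ratio of 0.999 (0.831 to 1.20). Per1 was at 20.4 and 21.7 CPM, with a ratio of 0.944 (0.655 to 1.35). For the activators and Per1, then, the libraries did not differ beyond counting error in this class.

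Other repressors and the outputs in macrophages lay on the side of suffix 1. Nr1d1 was at 13.3 and 6.32 CPM, with a ratio of 2.10 (1.20 to 3.78). Nr1d2 was at 45.2 and 37.3 CPM, with a ratio of 1.21 (0.938 to 1.56). Dbp had 43 UMIs with suffix 1 and 10 with suffix 2, with a ratio of 5.13 (2.54 to 11.4). These genes rested on far fewer UMIs here than in hepatocytes. Tef was at 21.2 and 8.73 CPM, with a ratio of 2.43 (1.53 to 3.92). Usp2 was at 21.5 and 11.4 CPM, with a ratio of 1.88 (1.23 to 2.90). Per2 had 9 and 6 UMIs and Ciart 2 and 2, too few to compare. Past 2-fold were 3 of 8 clock genes higher and 0 lower with suffix 1, against 3.18% and 1.72% of 10963 genes.

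**Figure D2:**
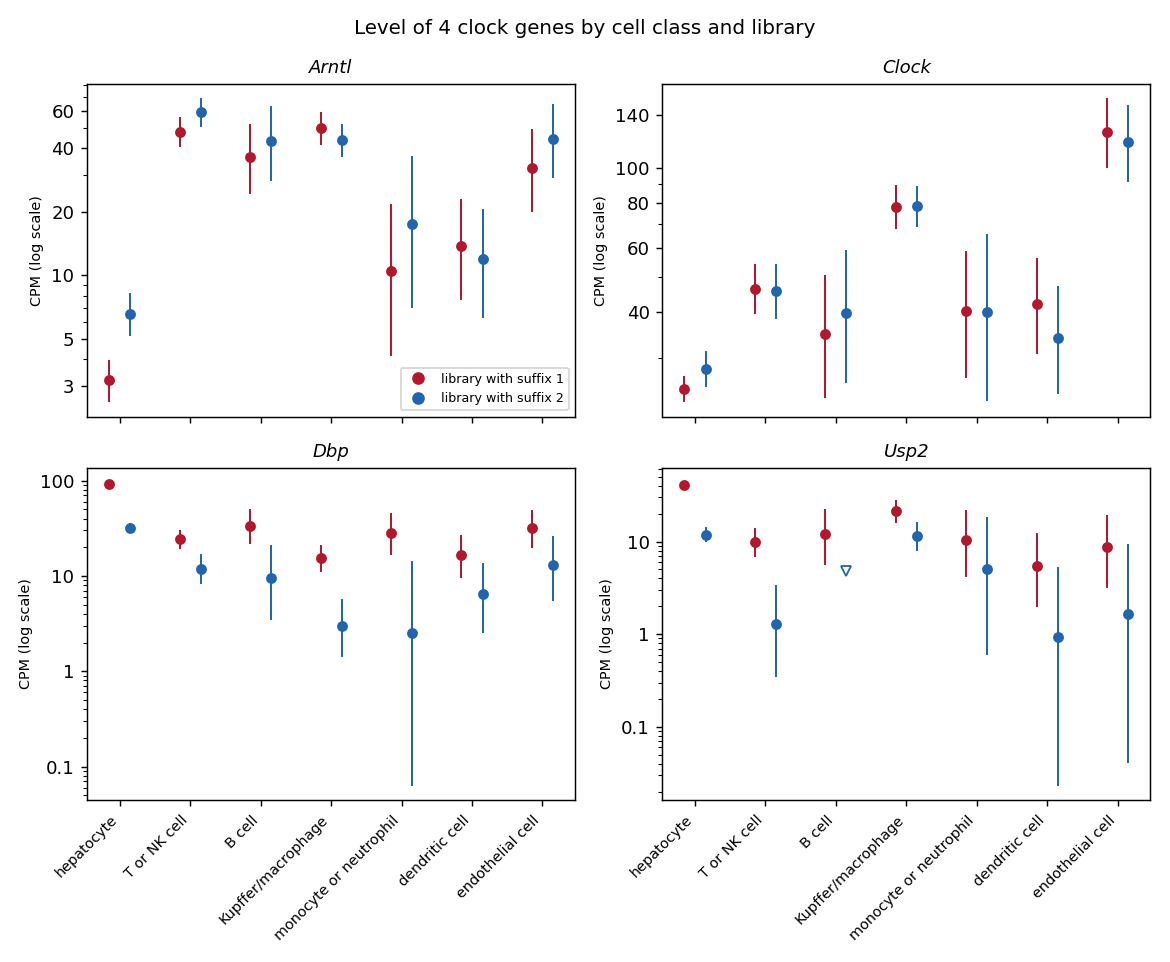
CPM of Arntl, Clock, Dbp and Usp2 (log scale) in 7 cell classes, with suffix 1 in red and suffix 2 in blue. Bars are exact Poisson 95% intervals, and an open triangle marks a count of 0 at the floor of 3 UMIs. Arntl is at 3.18 and 6.55 CPM in hepatocytes and at 43.6 to 59.3 CPM in T or NK cells and macrophages, while Dbp is highest in hepatocytes in both libraries.

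Droplets of other cells also hold free RNA from hepatocytes, and this differed in weight between the clock genes. Alb, the gene for albumin, which immune cells should lack, was at 9686 and 10760 CPM in T or NK cells and at 7793 and 9611 CPM in macrophages, against 35054 and 40239 CPM in hepatocytes. Scaling each hepatocyte level by Alb gave the UMIs that hepatocyte RNA alone would bring. Arntl in T or NK cells exceeded this, with 178 UMIs against 3.27 with suffix 1 and 184 against 5.43 with suffix 2. Clock had 173 against 25.3 and 142 against 23.2. Both activators thus stood far above the level of hepatocyte RNA in both libraries.

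Dbp in T or NK cells did not stand far above it. It had 90 UMIs against 94.0 with suffix 1 and 37 against 26.4 with suffix 2, both within counting error of the level of hepatocyte RNA. Taken from deep hepatocytes alone, that level was 73.8 and 23.9 UMIs, and the Dbp count with suffix 2 (interval 26.1 to 51) stood above it. Erythroid cells held 19 and 0 Dbp UMIs, the latter with an interval up to 8.35 CPM, too few to serve as a second source. With suffix 1 those 19 would give 63.8 Dbp UMIs in T or NK cells, under the interval of the count there (72.4 to 111). Usp2 had 37 against 41.8 and 4 against 9.84, again within counting error. The scaling was uneven over genes of the lists given below. In T or NK cells Pck1 lay below its level in both libraries (687 against 1485 and 459 against 1203). Cyp7a1 lay below with suffix 1 (90 against 115.5) and above with suffix 2 (42 against 28.65). Own expression and carried-over RNA cannot be told apart for Dbp and Usp2 in T or NK cells. Tef was within this level with suffix 1 (51 against 48.2) and above it with suffix 2 (45 against 20.4).

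Macrophages had Arntl at 139 UMIs against 1.97 with suffix 1 and at 145 against 5.20 with suffix 2. Dbp had 43 against 56.7, within counting error, and 10 against 25.3, below the level. Nr1d1 had 37 against 22.1 and 21 against 26.7, so it stood above only with suffix 1. Usp2 stood above in both libraries, with 60 against 25.2 and 38 against 9.42. Tef had 59 against 29.1 with suffix 1, which is above, and 29 against 19.5 with suffix 2, which is within. After subtraction the ratio was 1.45 for Usp2 and 1.17 for Arntl. For Tef none is given, since its count with suffix 2 was within the level of hepatocyte RNA. In all, 4 and 6 of the 10 genes stood above the level of hepatocyte RNA in T or NK cells with suffix 1 and suffix 2, and 7 and 5 in macrophages. Arntl, Clock, Per1 and Nr1d2 were above it in both libraries and both classes. A share over all genes is not given beside these counts, so they are not read as particular to clock genes. The estimate assumes that all Alb in these cells came from hepatocytes in the proportions of the gated cells.

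**Figure D3:**
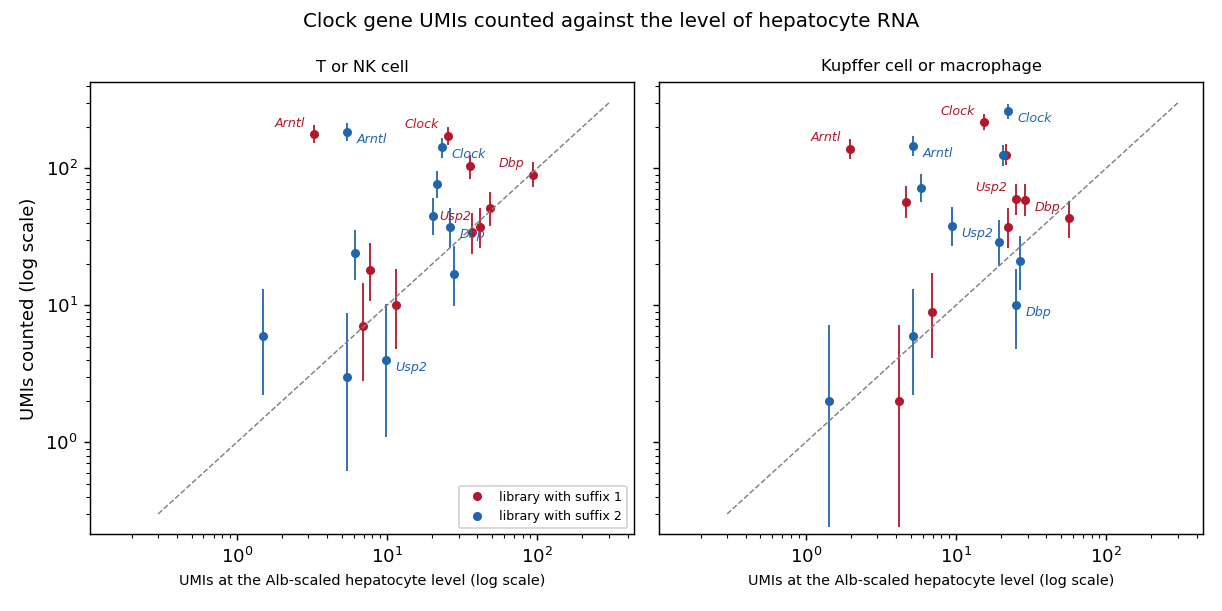
UMIs counted for each clock gene in T or NK cells and in macrophages against the UMIs that hepatocyte RNA would bring, scaled by Alb, both on log scales, with suffix 1 in red and suffix 2 in blue, bars for exact Poisson 95% intervals and a dashed line where both are equal. Arntl and Clock lie well above the line in both libraries (178 counted against 3.27 for Arntl in T or NK cells with suffix 1), and Dbp lies on or below it except in T or NK cells with suffix 2 (37 against 26.4, within its interval).

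With the filter used here, the library ratio of Arntl differed between hepatocytes and immune cells by more than counting error, but not under every mitochondrial limit. Divided by the ratio in T or NK cells, the hepatocyte ratio of Arntl was 0.602 (0.409 to 0.887), and divided by that in macrophages it was 0.425 (0.284 to 0.637). In deep hepatocytes the values were 0.551 (0.354 to 0.856) and 0.389 (0.246 to 0.614). With a mitochondrial limit of 10% they were 1.02 (0.511 to 2.08) and 0.666 (0.331 to 1.38), and with no filter on cells 0.944 (0.659 to 1.35) and 0.728 (0.501 to 1.06), so the intervals then included 1. With a limit of 50% they were 0.731 (0.509 to 1.05), which included 1, and 0.567 (0.388 to 0.827), which did not. For Clock the same quotients were 0.866 (0.663 to 1.13) and 0.880 (0.700 to 1.11), and both intervals included 1. The interval left out 1 for 2 of 10 genes against T or NK cells, which were Arntl and Tef (2.02, 1.29 to 3.14). Tef in T or NK cells with suffix 1 was within the level of hepatocyte RNA, so the ratio of the class itself was not measured. Against macrophages it left out 1 for 3, which were Arntl, Nr1d1 (0.504, 0.277 to 0.897) and Usp2 (1.82, 1.14 to 2.89). A share over all genes is not given for either count, so neither is read as particular to clock genes. The limit named for Tef holds for Nr1d1 in macrophages, which was within the level of hepatocyte RNA with suffix 2, and for Dbp in both immune classes. Usp2 against macrophages left out 1 under all 3 of these other filters as well, while Nr1d1 did so under none. Against T or NK cells the interval left out 1 under all 3 other filters for Tef (2.28 to 2.80) and for genes where it had included 1 with the filter used here, which were Nr1d2 (1.52 with 10%, 1.39 with 50% and 1.77 with no filter) and Ciart (5.53 with 10% and 3.97 with 50%, on 7 and 6 UMIs in T or NK cells with the filter used here). For Dbp against T or NK cells it left out 1 with a limit of 50% (1.63) and with no filter (2.07). With no filter alone it also did so for Clock against macrophages (1.26, 1.02 to 1.56) and for Nr1d2 against macrophages (1.67). The same held for Per1 against T or NK cells (2.22, 1.16 to 4.29) and macrophages (1.83, 1.20 to 2.80). Quotients with a limit of 50% or no filter count mitochondrial genes in the totals, and those without them are not given. With no filter the hepatocyte ratios of Clock and Per1 were nearer to 1 without them, as given above. Droplets with hepatocyte markers over the limit used here had mitochondrial shares of 43.4% with suffix 1 and 50.3% with suffix 2. Intervals that left out 1 only with a limit of 50% or no filter are thus not read as differences between cell classes.

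Among the 7 classes plotted, hepatocytes had the lowest level of Arntl in both libraries. Dendritic cells (13.8 and 12.0 CPM) and monocytes or neutrophils (10.5 and 17.6 CPM) came next, and with suffix 2 their intervals overlapped that of hepatocytes. The other 4 classes had 32.1 to 59.3 CPM, and endothelial cells (32.1 and 44.1 CPM) overlapped T or NK cells in both libraries. Clock was highest in endothelial cells, at 125 and 118 CPM, and Nr1d1 reached 74.3 and 55.5 CPM there. The Nr1d1 ratio in endothelial cells was 1.34 (0.851 to 2.13), and Arntl had 0.727 (0.395 to 1.33) from 22 and 27 UMIs. B cells, with 30 and 27 Arntl UMIs, had a ratio of 0.840 (0.483 to 1.47). Hepatocytes held 81.3% and 70.1% of all kept Dbp UMIs, but only 14.4% and 13.1% of all kept Arntl UMIs.

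Other genes of the circadian pathway also lay on both sides of equality in hepatocytes. Against 4.1% and 3.29% of all genes, 3 of 16 such genes were over 2-fold higher and 2 over 2-fold lower with suffix 1. Higher were Per3 (5.51 and 2.37 CPM, ratio 2.32), the repressor gene Bhlhe41 (2.48 and 0.736 CPM, ratio 3.37) and Wee1 (7.76 and 2.62 CPM, ratio 2.96), a cell cycle kinase under clock control. Lower were Npas2 (0.814 and 1.88 CPM, ratio 0.433), whose protein can take the place of CLOCK, and Nfil3 (10.4 and 21.4 CPM, ratio 0.487), a repressor at D-boxes. Nampt, an enzyme of NAD synthesis, was at the edge with a ratio of 2.00 (1.78 to 2.25). Hlf, the third D-box activator beside Dbp and Tef, had 1.69 (1.50 to 1.91), and Bhlhe40 had 1.52. Cry1, a repressor gene, was lower with suffix 1, at 0.590 (0.437 to 0.798), and Cry2 was at 1.28 (1.04 to 1.57). Rora, an activator of Arntl, was at 0.905. Csnk1d, Csnk1e, Fbxl21, Btrc and Noct had ratios between 0.618 and 1.17. In T or NK cells 0 of 14 of these genes passed 2-fold in either direction with 0.5 UMI added, and Hlf lay at the edge (46 and 19 UMIs, ratio 2.02, 1.16 to 3.65, without it), with both counts within the level of hepatocyte RNA. Over all genes 2.46% were higher and 1.79% lower there. In macrophages 1 of 12 did, Per3 (18 and 10 UMIs, ratio 2.15, 0.939 to 5.20), against 3.18% of all genes higher and 1.72% lower.

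**Figure D4:**
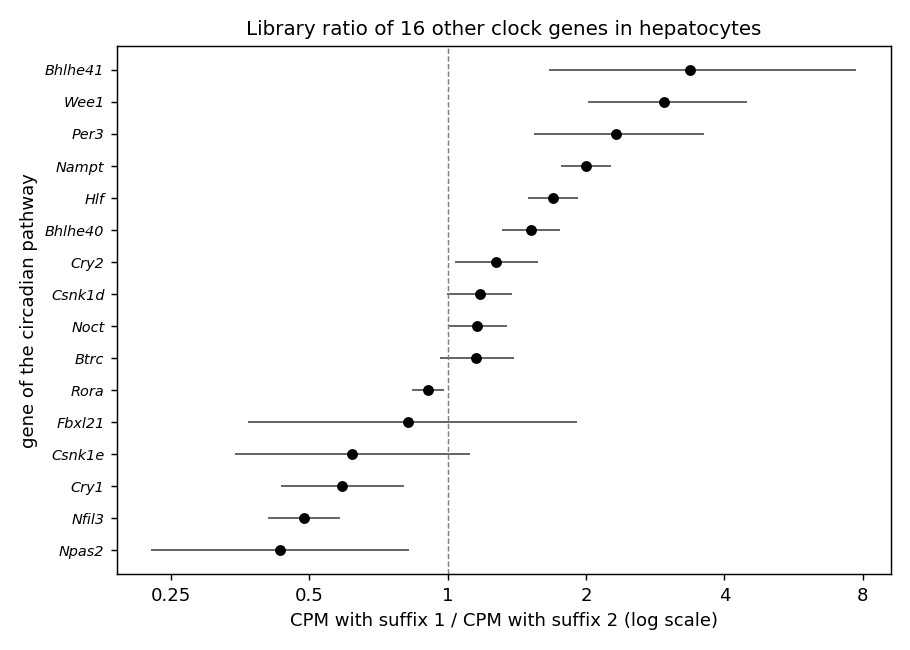
Ratio of CPM with suffix 1 to CPM with suffix 2 in hepatocytes for 16 further genes of the circadian pathway, ordered by ratio on a log scale, with exact 95% intervals for counting error only and a dashed line at equality. Bhlhe41, Wee1 and Per3 are at the top (3.37, 2.96 and 2.32) and Nfil3 and Npas2 at the bottom (0.487 and 0.433).

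Liver genes with known daily rhythms were also split. For this list and the next 2, the shares over all genes in hepatocytes were 4.1% higher and 3.29% lower. Of 15 such genes 2 were over 2-fold higher with suffix 1 in hepatocytes, Cyp7a1 (112 and 34.5 CPM), the rate-limiting enzyme of bile acid synthesis, and Alas1 (376 and 155 CPM), that of haem synthesis. Lower were 2, Elovl3 (15.8 and 67.5 CPM), a fatty acid elongase, and Insig2 (69.1 and 254 CPM), a brake on sterol synthesis. Of 13 genes that respond to glucocorticoids or fasting, Mt1 (1189 and 260 CPM) and Mt2 (217 and 30.6 CPM), which encode metallothioneins, were higher, and Pdk4 (12 and 16 UMIs) and Lcn2 (3.57 and 11.1 CPM) were lower. Of 15 immediate early or dissociation genes, Hspa1a (42 and 4 UMIs) and Hspa1b (10.5 and 5.07 CPM) were higher and Fos (2.87 and 7.04 CPM) and Egr1 (4.19 and 13.0 CPM) were lower with suffix 1. The median log2 ratio of that list was -0.29, with Btg2 at a ratio of 0.547, Atf3 at 0.559, Zfp36 at 0.651 and Jun at 0.762. In T or NK cells and macrophages Alas1, Mt1, Mt2, Elovl3 and Insig2 were past 2-fold on the same sides as in hepatocytes, but these levels hold much hepatocyte RNA. By the Alb scaling, Alas1 and Mt2 stood above the level of hepatocyte RNA in neither class or library (264 Alas1 UMIs against 386 in T or NK cells with suffix 1), and Mt1 only in macrophages with suffix 2 (294 against 207). Elovl3 stood above it with suffix 2 only, and Insig2 in both libraries and both classes (145 against 71.0 and 245 against 211 in T or NK cells). Upp2 was past 2-fold higher in T or NK cells, below that level in both libraries. No immediate early gene of the 11 and 15 with at least 20 UMIs passed 2-fold in these classes, near the shares over all genes given above. The part of stress, fasting or handling in the clock gene differences was not tested.

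No clock gene was among those with the widest library gap in all 3 classes. By the smallest log2 ratio over hepatocytes, T or NK cells and macrophages, the genes most shared upwards were Tff3 (3.81), Spink1 (3.17), Gstm3, Selenbp2 (2.94) and Spp1 (2.75). These levels still include hepatocyte RNA in the immune classes. Downwards they were Orm1 (-4.58), Mup7 (-3.80), Hsd17b6 (-2.68), Wfdc21 (-2.63) and Saa4 (-2.34). Of 9487 genes 24 were over 2-fold higher and 30 over 2-fold lower with suffix 1 in all 3 classes. Dbp, at 1.01, was the only clock gene past 2-fold in all 3 classes. Scaled from all gated hepatocytes, its count stood above the level of hepatocyte RNA in neither immune class and neither library.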

How the data were processed

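Single-cell RNA was measured in 2 samples, deposited as 1 joined matrix. The authors made the counts, whole numbers of UMIs per gene and barcode, and the file headers name Cell Ranger 7.1.0. The submitters' processing notes also name bcl2fastq 2.20.0, STAR 2.7.2a and mm10. Cell calling, counting of introns and equalising of depth were not stated in the labels or methods used here. Columns that hold barcodes and gene names were deposited as text and only used as names.

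Cells were kept with at least 500 UMIs, 200 genes and at most 25% mitochondrial UMIs (13 genes). A class other than hepatocyte needed 3 distinct markers of its list, 1 marker UMI per 1000, under 80 hepatocyte marker UMIs per 1000, and a runner-up list at no more than 0.75 of its share of markers. Hepatocytes had at least 80 per 1000 and passed no other gate. Cells that passed several gates (418 and 346) or none (237 and 206) were left out, and doublets were not otherwise removed. Gate limits were set after seeing the data.

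UMIs were summed by class and suffix. Levels carry exact Poisson and ratios exact binomial (Clopper-Pearson) 95% intervals, for counting error only. The floor for a count of 0 was set at 3 UMIs. With both counts at 3 or under no ratio is given. A gene past 2-fold had at least 20 UMIs over both libraries, with 0.5 added to each. No test was run, since cells are not replicates. On simulated counts the scripts recovered the ratios they were made with. Named genes were the 10 clock genes, 4 further lists and, by the smallest log2 ratio over 3 classes, the 5 most shared genes each way. Of the listed genes 2 are not reported here. The members and lists were chosen with earlier results of these data known. Python 3.11.15, numpy 2.4.6, scipy 1.17.1 and pandas 2.3.3 were used. Alternatives covered filters, denominators, gates, means over cells, pseudocounts and subtraction of free RNA.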

Additional observations from a re-analysis of the deposited data

Results flagged for a closer look

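Droplets over the mitochondrial limit, which entered only the values given for wider limits or no filter on cells, still held clock gene RNA. The 10 genes summed to 105.5 CPM over 5675 droplets with suffix 1 and to 43.45 CPM over 8886 with suffix 2. In those with hepatocyte markers (3934 and 6499), Dbp was at 34.7 and 7.04 CPM, a ratio of 4.94 (4.33 without mitochondrial UMIs). Arntl had 15 and 21 UMIs there, a ratio of 1.39 (0.667 to 2.83), or 1.22 (0.586 to 2.49) without mitochondrial UMIs.

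Some library ratios lay on opposite sides of equality in hepatocytes and in an immune class. On the log2 scale (suffix 1 over suffix 2) Arntl was at 0.19 in macrophages and -1.04 in hepatocytes, a contrast given above with its counting interval and its dependence on the filter. Tef in T or NK cells was at -0.083, against 0.93 in hepatocytes. Clock in T or NK cells was at 0.023, against -0.19 in hepatocytes. Per1 was at -0.67 in T or NK cells and at -0.081 in macrophages, against 0.027 in hepatocytes. With 1 library on each side none of these differences was tested.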

How the results depend on the processing

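No paired analysis was possible because each genotype had 1 sample, and leaving out a replicate was not possible for the same reason. The Arntl ratio in hepatocytes stayed below 1 under all 15 alternatives, from 0.445 to 0.790. It moved out of its interval with a mitochondrial limit of 10% (0.790) and with no filter on cells (0.780), and the cause was not tested. The value of 0.780 counts mitochondrial genes in the totals, and that without them is not given. The Dbp ratio in hepatocytes stayed above 1, from 2.59 to 4.30, and moved to 3.38 with a limit of 50%, to 4.30 with no filter on cells and to 3.52 with no filter and mitochondrial genes left out. In T or NK cells Dbp fell to 1.04 when free RNA of deep hepatocytes was subtracted, over a remainder with suffix 1 (90 UMIs, 72.4 to 111, less 73.8) that counting error does not tell from 0. Arntl ran from 0.763 to 0.844 in T or NK cells and from 1.01 to 1.19 in macrophages. Genes over 2-fold higher with suffix 1 numbered 1603 at 1 UMI and 233 at 100 UMIs in hepatocytes, 2428 and 61 in T or NK cells, and 1999 and 48 in macrophages. Genes over 2-fold lower numbered 2648 and 149, 1722 and 41, and 2107 and 43, where the filter itself sets how many genes are tested. With no filter on cells the hepatocyte ratios of Per1 and Nr1d1 were 1.54 and 1.61, and Clock turned to 1.28. Each of these was nearer to 1 without mitochondrial genes, as given in the results. Other gates, the level of hepatocyte RNA for the listed genes, the quotients of ratios under other filters, leaving out barcodes found in both libraries, the deep hepatocyte reference, and wider limits without mitochondrial genes were added after seeing the data. Over the clock genes and 3 classes 426 ratios stayed within the interval of the reported ratio, 29 did not, and none past 2-fold changed direction.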
